A study of Saccharomyces cerevisiae with 3 samples.

Results

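The middle segment of 25S comprises positions 4384 to 5515 of the 35S transcript, counted from its first nucleotide. It was chosen by position alone, as the second of 3 equal segments of the rows that the table assigns to 25S, and holds 1132 of the 6858 positions of the 35S gene. These are nucleotides 1133 to 2264 of mature 25S rRNA. In assembly R64 they lie on the minus strand of chromosome XII, at chrXII:462055-463186, inside *RDN25-2* (chrXII:460923-464318), the 25S part of the 35S gene *RDN37-2*. All of them belong to the mature rRNA and none to a spacer.

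25S is the large RNA of the 60S ribosomal subunit, and RNA polymerase I (Pol I) transcribes it together with 18S and 5.8S as a single precursor. Its middle stretch folds into parts of domains II, III and IV, which include ES27, a long expansion helix found in eukaryotes. Hmo1 is a high mobility group box protein that binds actively transcribed rDNA in place of histones. Native elongating transcript sequencing (NET-seq) recovers the RNA held by purified Pol I and maps its 3′ end, which is taken as the last nucleotide the polymerase had added. A position with many 3′ ends is one where Pol I is often found.

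The samples are 3 *hmo1Δ* replicates, each from its own culture grown in rich medium, in a strain with a His and HA tag on the Pol I subunit Rpa135 and with *HMO1* replaced by a marker gene. The wild type (WT) carries the same tagged subunit and an intact *HMO1*. Its libraries belong to an earlier series, so WT enters the main comparisons as the authors' median over its replicates, with no error of its own. The authors' WT mean and the interval around it served only as alternatives. The effect of the strain cannot be told apart from that of the series its libraries came from. No test between the strains was therefore run, and each main comparison gives the position of the 3 *hmo1Δ* replicates relative to the fixed WT median. Occupancy is in RPM, the reads at a position scaled so that positions 1 to 6739, the T1 terminator, sum to 1000000. The study states that such libraries also contain mature rRNA, and in this stretch 3′ ends of mature rRNA and of RNA held by Pol I cannot be told apart.

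The values step in nearly whole reads, and from the size of that step replicates 1, 2 and 3 were estimated at 3700348, 1984305 and 2810265 reads. Of these, 716350, 391467 and 540154 reads fell in the middle segment of 25S. The median position there held 477, 255 and 347 reads, with counting errors of 4.58%, 6.26% and 5.37%. No position was at 0, and the lowest held 15 reads. Spearman coefficients between pairs of replicates were 0.968, 0.979 and 0.962, and the coefficient of variation per position had a median of 9.66%, against 10.7% over the whole gene. Between pairs, chi-square divided by its degrees of freedom came to 4.97 to 6.68, where counting noise gives values near 1, so the libraries differed beyond counting noise.

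The sequences below carry the results that follow. They are RNA from the deposited table, 5′ to 3′. In the first 4, capitals mark positions at which all 3 *hmo1Δ* replicates were at least 1.5-fold above the WT median, and these stretches are shown because risen positions lay densest there or rose most. In the next pair, capitals mark positions at which all 3 replicates were at least 1.5-fold below it.
Positions 5251 to 5285, chrXII:462285-462319: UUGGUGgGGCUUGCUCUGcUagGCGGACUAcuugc
Positions 5392 to 5405, chrXII:462165-462178: uAAAACAUAGCAUu
Positions 4630 to 4664, chrXII:462906-462940: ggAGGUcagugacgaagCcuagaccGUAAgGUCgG
Positions 4984 to 5033, chrXII:462537-462586: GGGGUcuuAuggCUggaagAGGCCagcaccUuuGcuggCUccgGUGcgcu
Positions 4960 to 4984, chrXII:462586-462610: cccggaaUUGGuuuaucCggagaug
Positions 5404 to 5420, chrXII:462150-462166: uugCgAugGUCagaaag

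The highest peaks are shown with the 19 nucleotides before and the 5 after the last added nucleotide, which is in capitals. They show what Pol I had just transcribed where its 3′ ends were most frequent.
Position 5158: uguagauaagggaagucggCaaaau
Position 5046: gugcgcuugugacggcccgUgaaaa
Position 5338: uguagaccgucgcuugcuaCaauua
Position 4429: acguagaguuaaggugccgGaauac
Position 4598: cuauacucuaccgucagggUugaua

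The stretch as a whole held about the same share of the occupancy in both strains. It accounted for 19.4%, 19.7% and 19.2% of the total in *hmo1Δ* replicates 1, 2 and 3, and for 18.8% of the authors' WT median. The log2 ratio of the summed occupancy was 0.0426, 0.0699 and 0.0323, a mean of 0.0483 ± 0.0194 (SD, n = 3), so all 3 replicates lay slightly above WT. In the 5′ segment of 25S the mean log2 ratio was 0.0415 ± 0.0138 and in the 3′ segment it was -0.0408 ± 0.0413. The middle segment exceeded the 3′ segment by 0.0891 ± 0.0607 (SD, n = 3) on the log2 scale, in 3 of 3 replicates (exact sign permutation test, 2-sided, *p* = 0.25), and the 5′ segment by 0.00679 ± 0.0222 (exact permutation *p* = 0.750). With 3 replicates this test cannot go below 0.25, so neither difference could pass a threshold.

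Inside that nearly level total, occupancy was spread more evenly over positions in *hmo1Δ*. The low positions held more reads than in WT and the highest held less of the total. The 5th percentile over the 1132 positions was 40.0, 40.6 and 35.6 RPM in replicates 1, 2 and 3 and 27.4 RPM in the WT median. The 25th percentile was 81.3, 79.1 and 75.3 RPM against 64.7 RPM, and the median position was at 129, 129 and 123 RPM against 109 RPM. All replicates were above WT at these levels. At the 75th percentile they were at 207, 212 and 202 RPM against 194 RPM, and at the 95th at 454, 460 and 473 RPM against 468 RPM, where they fell on both sides.

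**Figure D1:**
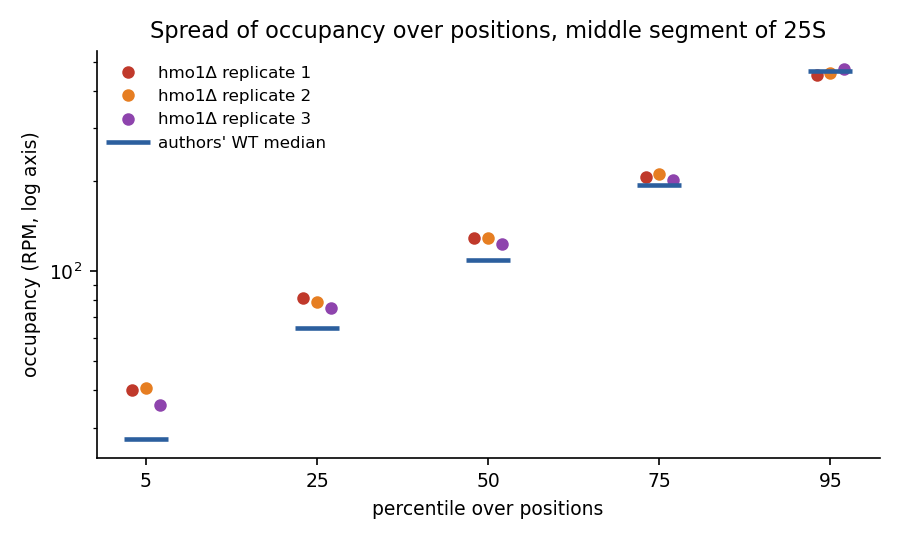
Percentiles of occupancy (RPM, log axis) over the 1132 positions of the middle segment of 25S, with a point for each *hmo1Δ* replicate and a bar for the authors' WT median. The replicates lie above WT at the 5th percentile (35.6 to 40.6 against 27.4 RPM) and on both sides of it at the 95th (454 to 473 against 468 RPM).

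The top 2.5% of positions, 28 in number, held 11.9%, 11.8% and 12.6% of the occupancy of the stretch in the replicates, 12.1% ± 0.434 (SD, n = 3), and 15% in WT. The SD of log2(RPM + 1) over positions was 1.06 ± 0.0327 (SD, n = 3) in *hmo1Δ* and 1.24 in WT. The *hmo1Δ* median, made in the same way as the WT median, gave 1.06. The mean difference of the SD from WT was -0.172, against -0.126 in the 5′ segment and -0.165 in the 3′ segment. Over the whole gene the SD was 1.55 ± 0.0348 (SD, n = 3) in *hmo1Δ* and 1.76 in WT. The lower SD was therefore not particular to the middle segment, and the reduction over the gene was larger. The reduction was larger in the middle segment than in the 5′ segment in 3 of 3 replicates (exact sign permutation test, 2-sided, *p* = 0.25, the smallest possible).

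At 510 positions of the middle segment (45.1%) every *hmo1Δ* replicate exceeded the WT median, where the share over the whole gene was 44.2%, and below it at 393 positions (34.7%), against 37.2% over the gene. The median log2 ratio per position was 0.06, against 0.05 over all positions of the gene. Counting only changes of at least 1.5-fold in every replicate on log2(RPM + 1), 175 positions rose (15.5%), against 20.3% of the gene, and 37 fell (3.27%), against 7.23% of the gene. Both shares were under those of the gene. At 2-fold, 84 positions were above (7.42%, 11.4% of the gene) and 1 was below (0.0883%, 1.53% of the gene), position 4969. The rises were thus larger than the falls on a log scale. Of the 175 rises and 37 falls, 174 and 37 also lay outside the interval that the authors give around the WT mean.

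The rises and falls were clustered along the sequence. Divided into 23 windows of 50 positions, of which the last held 32, the stretch had 10 windows with all replicates above WT, 6 with all below and 7 with replicates on both sides. The window means ran from 48.0 to 286 RPM in WT, a 5.96-fold span, and from 93.7 to 265 RPM in *hmo1Δ*, a 2.83-fold span. In the 5 windows with the lowest WT mean, all replicates were above WT, with mean log2 ratios from 0.24 to 0.96. In the 5 with the highest WT mean the mean log2 ratios were between -0.25 and -0.05, and in 4 of them all replicates were below WT. The WT value enters both measures in this comparison, so the relation is a description of the profile.

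**Figure D2:**
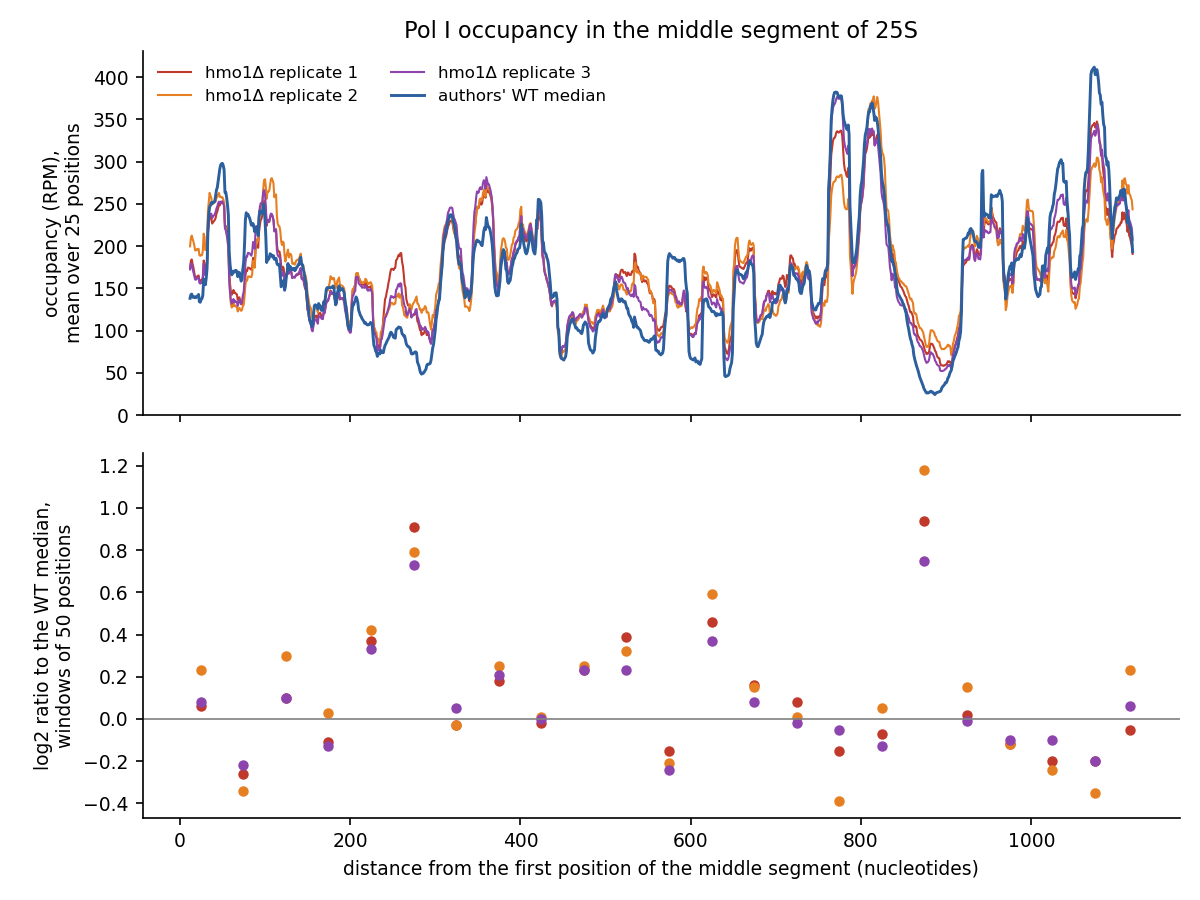
Top, occupancy in RPM as a mean over 25 positions along the middle segment of 25S for each *hmo1Δ* replicate and the authors' WT median. Bottom, the log2 ratio of each replicate to the WT median in windows of 50 positions, where the largest rise, 0.96 ± 0.21 at positions 5234 to 5283, overlaps the deepest WT trough.

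The largest rise was in the window from position 5234 to 5283, nucleotides 1983 to 2032 of 25S. Its mean occupancy was 91.8, 108 and 80.9 RPM in replicates 1, 2 and 3 and 48.0 RPM in WT, a log2 ratio of 0.96 ± 0.21 (SD, n = 3). Replicate 2 was highest and replicate 3 lowest, and all were clear of WT. In this window 31 of the 50 positions rose by at least 1.5-fold and none fell. It is poor in A, at 8%, with 38.0% G, 32.0% U and 22% C.

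Next came the window from 4634 to 4683, at 137, 127 and 121 RPM against 73.2 RPM in WT, a log2 ratio of 0.81 ± 0.09 with 18 risen positions. The third was the window from 4984 to 5033, at 128, 139 and 120 RPM against 92.8 RPM, a log2 ratio of 0.47 ± 0.11 with 20 risen positions. These 3 windows thus held 69 of the 175 risen positions.

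The largest fall of a window was smaller in size. Positions 4434 to 4483 were at 163, 154 and 167 RPM against 195 RPM in WT, a log2 ratio of -0.27 ± 0.06 (SD, n = 3). Positions 5434 to 5483, the window with the highest WT mean, were at 248, 224 and 250 RPM against 286 RPM, a log2 ratio of -0.25 ± 0.09. Positions 5134 to 5183, which contain the highest peak, were at 232, 197 and 249 RPM against 258 RPM, and their log2 ratio of -0.20 ± 0.17 ranged from -0.05 to -0.39 between replicates. Window 4934 to 4983, the richest in U at 38.0%, had the same mean of -0.20 with an SD of only 0.05.

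The deepest trough of 25 positions in WT was at 5259 to 5283, with a mean of 24.4 RPM. There *hmo1Δ* had 76.0, 93.7 and 64.3 RPM, a log2 ratio of 1.66 ± 0.27 (SD, n = 3), and 19 of the 25 positions rose. The deepest trough of *hmo1Δ* overlapped it, at 5269 to 5293, with 58.3, 78.1 and 52.7 RPM against 35 RPM in WT. There the log2 ratio was 0.83 ± 0.29. The same region was thus lowest in both strains, but less deep in *hmo1Δ*. Each set of troughs was chosen on the values compared, which favours a rise at WT troughs and a fall at *hmo1Δ* troughs. The next WT troughs were at 5013 to 5037, at 45.7 RPM against 78.0 ± 10.7 RPM (SD, n = 3) in *hmo1Δ*, and at 4656 to 4680, at 48.6 RPM against 106 ± 13.9 RPM. Not every trough was shallower in *hmo1Δ*. Positions 4820 to 4844, its second lowest, were at 73.3, 67.3 and 74.1 RPM and at 67.2 RPM in WT, a log2 ratio of 0.09 ± 0.08.

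Positions 5258 to 5268, inside the deepest trough, rose in an unbroken run of 11, from 19.8 RPM in WT to 93.2, 99.2 and 78.5 RPM, which is 4.56-fold. Position 5265 in that run had the largest rise of the stretch among positions reaching 100 RPM in either strain. It held 126, 135 and 70.8 RPM in replicates 1, 2 and 3 and 16.1 RPM in WT, a log2 ratio of 2.65 ± 0.51 (SD, n = 3). Replicate 3 was well under the others. Named rises and falls had to have all 3 replicates at least 1.5-fold on the same side of WT. That their replicates are clear of WT therefore follows from the choice. Position 5277 held 214, 327 and 186 RPM against 43.0 RPM, a log2 ratio of 2.42 ± 0.42. Both end a stretch in which 50% of the last 10 nucleotides are G. At the other named rises this share ran from 10% (position 5404) to 60% (position 4635). It was also 50% at the peaks 5158 and 4429, which lay below WT.

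A sharp step occurred at position 5393, nucleotide 2142 of 25S. Position 5392 held 307, 261 and 287 RPM in the replicates and 317 RPM in WT. At position 5393 the values were 60.8, 69.5 and 65.8 RPM in *hmo1Δ* and 30.9 RPM in WT. All 12 positions from 5393 to 5404 rose by at least 1.5-fold, and their mean was 74.5, 77.8 and 71.5 RPM against 22.3 RPM, 3.35-fold. Over the 12 positions before the step the strains were level, at 261 ± 10.2 RPM (SD, n = 3) and 265 RPM. The drop across the step was thus 3.50-fold in *hmo1Δ* and 11.9-fold in WT. The run was chosen because all its positions rose. With level values before it, the smaller drop in *hmo1Δ* restates that rise. The log2 ratio of this run was 1.74 ± 0.06 (SD, n = 3), with the replicates close together. Nucleotide A2142 is the residue of yeast 25S that the methyltransferase Bmt2 converts to N1-methyladenosine in mature rRNA. The table holds no measure of methylation.

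Directly after this run occupancy was lower than in WT. Position 5407 held 212, 177 and 226 RPM against 398 RPM, a log2 ratio of -0.96 ± 0.18 (SD, n = 3), and 5 of the 8 positions from 5407 to 5414 fell by at least 1.5-fold, the largest cluster of falls. Over these 8 positions *hmo1Δ* was at 229, 202 and 247 RPM and WT at 378 RPM. Position 5404, the last of the run, had risen from 24.1 RPM to 147, 153 and 137 RPM, a log2 ratio of 2.54 ± 0.08. A rise and a fall of this size were therefore 3 nucleotides apart.

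The other named rises were at 4635, 4661, 5028, 5006 and 4748. Positions directly beside the first 4 of them rose too, and those directly beside 4748 did not pass the 1.5-fold call. Position 4635 held 400, 223 and 218 RPM against 43.9 RPM in WT, a log2 ratio of 2.59 ± 0.49 (SD, n = 3). Replicate 1 stood far above the others, which were close to each other. Position 4661 held 246, 303 and 228 RPM against 44.2 RPM, a log2 ratio of 2.52 ± 0.21. Positions 5028, 5006 and 4748 had log2 ratios of 2.29 ± 0.34, 2.10 ± 0.34 and 1.96 ± 0.22, with WT values from 42.4 to 54.3 RPM. At each of these 3 replicate 2 was highest and replicate 3 lowest, the same order as at position 5277.

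**Figure D3:**
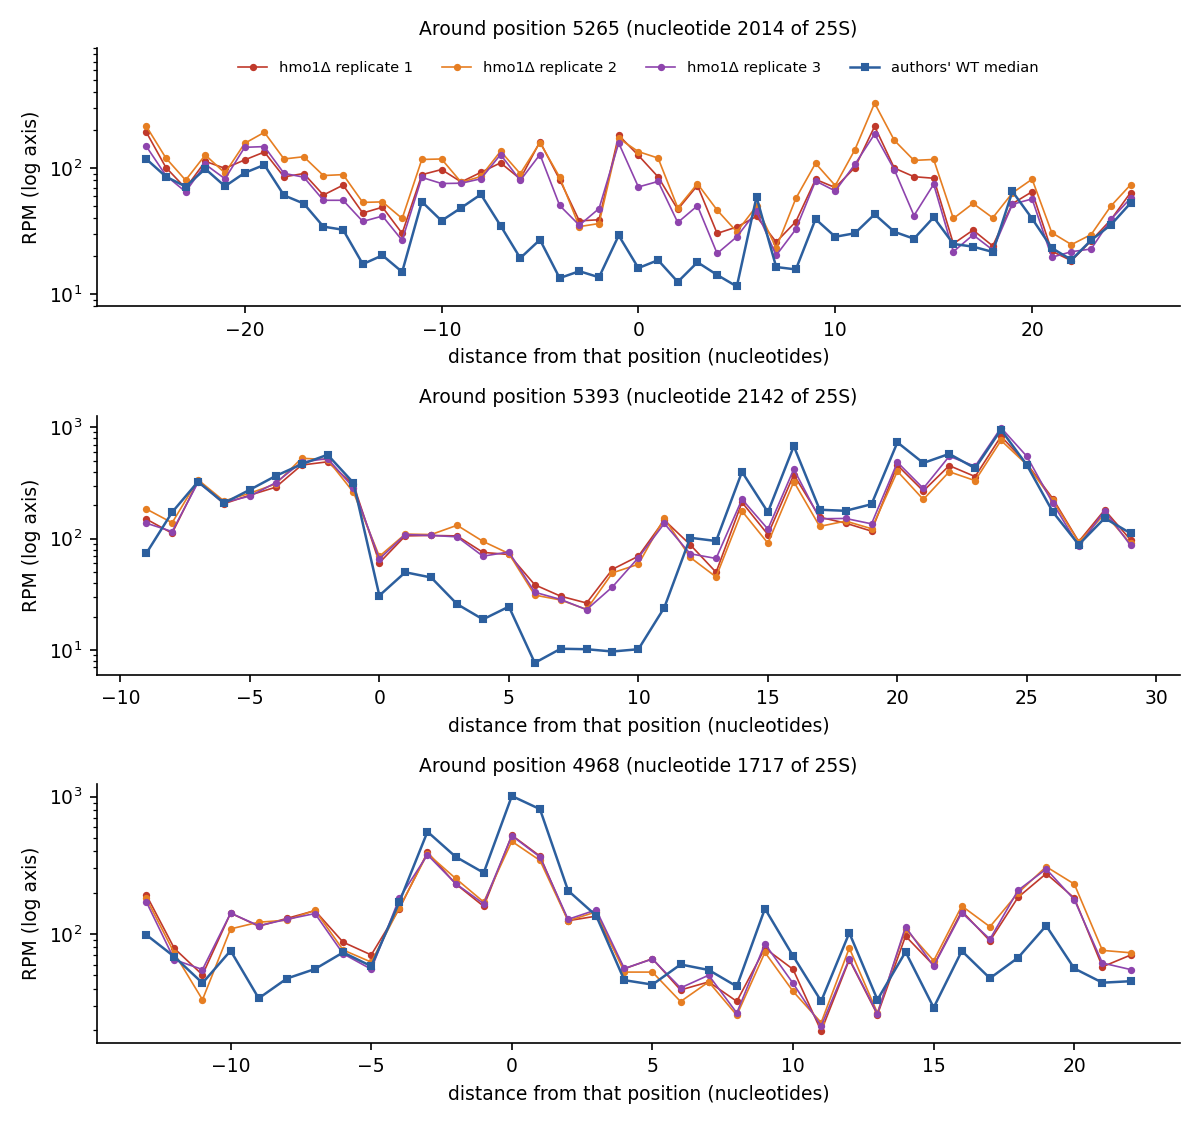
Occupancy per position (RPM, log axis) by distance from 3 positions, for each *hmo1Δ* replicate and the authors' WT median. Around 5265 the replicates run above WT for most of the trough. The 12 positions from 5393 have means of 71.5 to 77.8 RPM in the replicates and 22.3 RPM in WT, with lower values than WT after them. At 4968 the WT peak of 1009 RPM is about 2.00 times the *hmo1Δ* mean.

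The largest fall was at positions 4968 and 4969, nucleotides 1717 and 1718 of 25S. Position 4969 held 369, 343 and 363 RPM in the replicates against 810 RPM in WT, a log2 ratio of -1.18 ± 0.06 (SD, n = 3). Position 4968, one of the 8 highest WT peaks, held 523, 472 and 519 RPM against 1009 RPM, a log2 ratio of -1.0 ± 0.08. The replicates lay close together at both positions. The 4 positions from 4967 to 4970 all fell, to 289 ± 9.42 RPM (SD, n = 3) from 577 RPM.

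Among the other named falls, position 5079 had a log2 ratio of -0.91 ± 0.20 (SD, n = 3), from 101 RPM in WT to 53.9 ± 7.77 RPM. Position 5045 held 162, 161 and 169 RPM against 295 RPM, a log2 ratio of -0.84 ± 0.04, while its neighbour 5046 did not separate from WT. Positions 5316, 4470, 5372 and 5463 had log2 ratios of -0.82 ± 0.06, -0.80 ± 0.22, -0.78 ± 0.09 and -0.74 ± 0.19.

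Position 5158 was the highest peak in both strains. It held 1931, 1691 and 2171 RPM in the replicates and 2337 RPM in WT, a log2 ratio of -0.28 ± 0.18 (SD, n = 3), and all 3 replicates were below WT. Position 5338, the second highest WT peak, fell to 1256, 1333 and 1359 RPM from 2067 RPM, a log2 ratio of -0.65 ± 0.06. Position 5315 fell to 816, 847 and 882 RPM from 1383 RPM, a log2 ratio of -0.71 ± 0.06. These 3 peaks, all in the 3′ part of the stretch, kept a place among the 8 highest of *hmo1Δ*.

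Position 5046 was the second highest *hmo1Δ* peak, at 1456, 1428 and 1306 RPM against 1380 RPM in WT, a log2 ratio of 0.02 ± 0.08 (SD, n = 3). Its replicates fell on both sides of WT. Positions 4429, 5010 and 5458 were lower than WT in all replicates, with log2 ratios of -0.30 ± 0.03, -0.34 ± 0.07 and -0.34 ± 0.10 (SD, n = 3). Position 4598 was the only one of the 8 highest *hmo1Δ* peaks to lie above WT in all replicates. It rose to 940, 1030 and 988 RPM from 473 RPM, a log2 ratio of 1.06 ± 0.07.

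**Figure D4:**
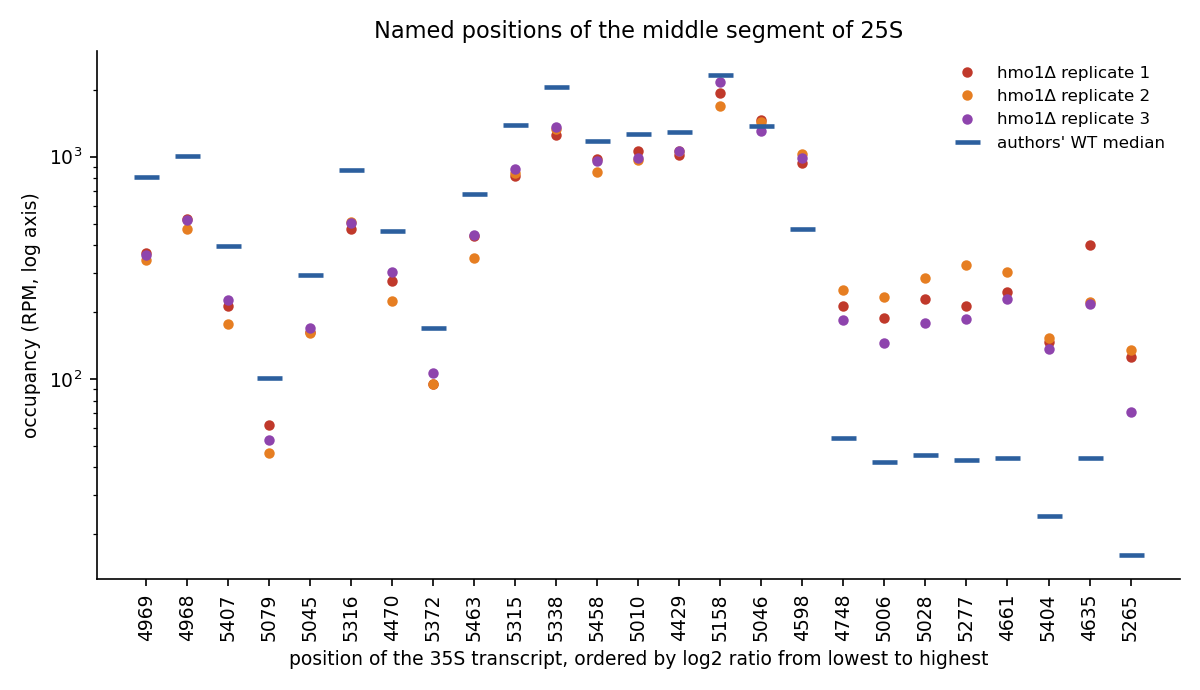
Occupancy (RPM, log axis) at the 25 named positions of the middle segment of 25S, ordered by log2 ratio, with a point for each *hmo1Δ* replicate and a bar for the authors' WT median. The rises start from WT values of 16.1 to 54.3 RPM, except position 4598 at 473 RPM. The falls start from 101 RPM or more. Positions named as rises or falls had to reach 100 RPM in either strain. For a fall the higher strain is WT, so the lower limit of the falls follows from this choice, whereas a rise could reach it in *hmo1Δ*.

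A peak was taken as the highest position within 10 nucleotides on either side that reached 3 times the median of the profile. By this measure the *hmo1Δ* median had 31 peaks and the WT median 33, and 22 were at the same position, which is 71.0% of the *hmo1Δ* peaks and 66.7% of the WT peaks. Of the 31 *hmo1Δ* peaks, 23 were peaks in each single replicate. At the 33 WT peaks all replicates were below WT at 19 and above it at 7, with a median log2 ratio of -0.22. At the *hmo1Δ* peaks both counts were 13, with a median of -0.01. Each set was chosen on the values compared, which favours a fall at WT peaks and a rise at *hmo1Δ* peaks. Of the 11 WT peaks without an *hmo1Δ* peak at the same position, 7 had an *hmo1Δ* peak within 10 nucleotides. Of the 9 *hmo1Δ* peaks without a WT counterpart, 5 rose by at least 1.5-fold.

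The longest run of neighbouring positions with all replicates above WT was from 4655 to 4684, 30 positions at 97.6, 121 and 100 RPM against 49.8 RPM, a log2 ratio of 1.09 ± 0.17 (SD, n = 3). The next was from 5243 to 5270, 28 positions at 1.18 ± 0.18. The third, 15 positions from 4920 to 4934, had a log2 ratio of 0.85 ± 0.22. Runs below WT were shorter and shallower. The longest was 17 positions from 4459 to 4475, at 190, 180 and 217 RPM against 281 RPM, a log2 ratio of -0.53 ± 0.14. It was followed by 12 positions from 5440 to 5451 at -0.34 ± 0.16 and 12 from 5458 to 5469 at -0.45 ± 0.12.

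Positions were ranked less alike in *hmo1Δ* and WT than in pairs of *hmo1Δ* replicates. The Spearman coefficient of replicates 1, 2 and 3 with the WT median was 0.843, 0.794 and 0.873 over the 1132 positions, against 0.962 or more between replicates. Replicate 2, the one with the fewest reads, was farthest from WT in each segment of 25S. These coefficients are descriptions over positions that share libraries.

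Base content before the 3′ end differed between risen and fallen positions. Among the 10 nucleotides that end at the position, G made up 34.3% at risen positions, 26.5% at fallen positions and 30.0% over the stretch. U made up 21.1%, 26.5% and 23.4%, A 24.9%, 23.5% and 25.9%, and C 19.6%, 23.5% and 20.7%. Across the 1132 positions, Pearson's r of the log2 ratio with G content was 0.182, 0.268 and 0.220 in replicates 1, 2 and 3, and with U content it was -0.129, -0.174 and -0.163. Over the whole gene the means were 0.183 for G and -0.142 for U, so the middle segment was near the gene in both. Windows of neighbouring positions overlap and share libraries and base composition, and these weak coefficients are given with no *p*-value.

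The 175 positions of the stretch whose last 10 nucleotides held 5 or more G had median log2 ratios of 0.35, 0.46 and 0.28. Of these, 45 rose (25.7%, against 15.5% of the stretch and 20.3% of the gene). None fell, where 3.27% of the stretch and 7.23% of the gene did. The share that rose did not climb steadily with G, at 15.5% with 0 or 1 G and 7.72% with 2. The 64 positions after 5 or more U had medians of -0.12, -0.31 and -0.20. Of them, 6 rose (9.38%) and 2 fell (3.12%), a share of falls near that of the stretch. The 107 positions after 5 or more A had medians of 0.23, 0.17 and 0.13. There 25 rose (23.4%), a share close to that after 5 or more G, and 2 fell (1.87%). The run from 5393 to 5404, in which A is frequent, belongs in part to the last group.

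**Figure D5:**
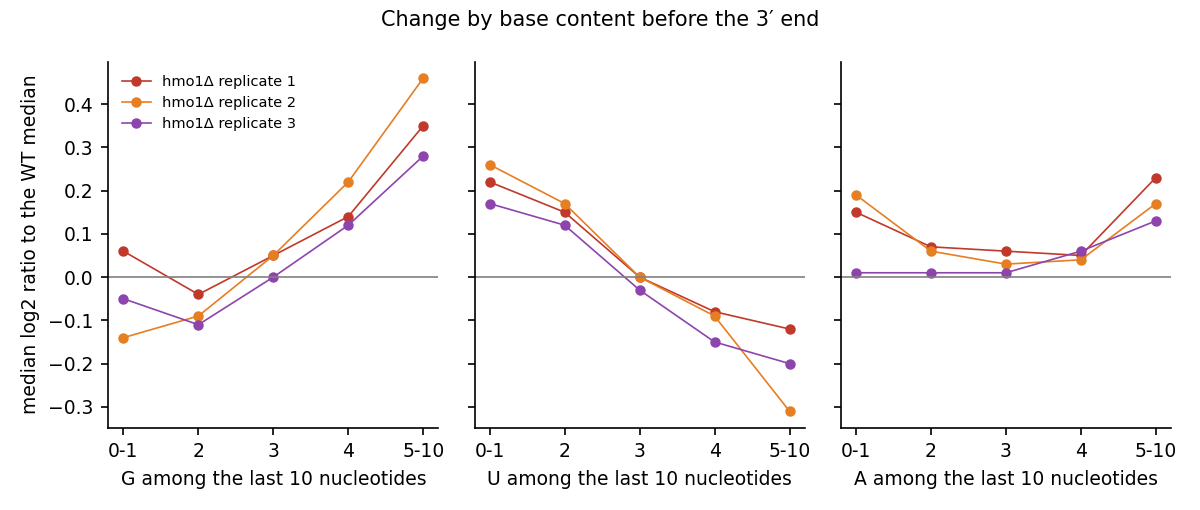
Median log2 ratio of each *hmo1Δ* replicate to the WT median by the number of G, U or A among the last 10 nucleotides, over the positions of the middle segment of 25S. It goes up with G from 2 G on, to 0.28 to 0.46 at 5 or more, and down with U, to -0.31 to -0.12.

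At the 3′ end itself the base shares were close between strains. Positions ending in A, 25.9% of the stretch, held 32.3% ± 0.615 (SD, n = 3) of its occupancy in *hmo1Δ* and 32.2% in WT. Positions ending in G, 29.9% of the stretch, held 25.1% ± 0.371 and 24.9%. For U the shares were 23.4% ± 0.756 and 22.5%, and for C 19.2% ± 0.183 and 20.5%, the only base at which the difference was several times the SD. Of the 37 fallen positions 29.7% ended in C and 16.2% in U, of the 175 risen positions 17.1% and 29.7%, and of all positions of the stretch 20.7% and 23.5%. Of the 31 *hmo1Δ* peaks, 38.7% ended in A, 29% in U, 22.6% in C and 9.68% in G, and of the 33 WT peaks 27.3%, 33.3%, 30.3% and 9.09%.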

How the data were processed

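Pol I NET-seq 3′ ends were measured in 3 *hmo1Δ* libraries. The authors removed duplicates by molecular identifier with fqtrim, trimmed adaptors with cutadapt 3.4, aligned reads with STAR 2.7.1a to R64 and made counts per position with BEDTools 2.28.0. How reads from the repeated rDNA copies were placed is not given in the sources used here. The deposited values are RPM, which the authors scaled so that positions 1 to 6739 sum to 1000000. The authors' WT median is in the same RPM, and their WT mean and the interval around it, treated as a score, served as alternatives. Such scaling shows the distribution along the gene and not the amount of transcription.

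There were 12 value columns not used. They are the single WT replicates, which belong to another series, the authors' summaries of *hmo1Δ*, and their comparison of the strains (a mean change, a ratio and a p-value).

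Ratios were log2(RPM + 1) differences of each replicate from the WT median, and a position was called when all 3 replicates were at least 1.5-fold on the same side. Reads were estimated from the step that 1 read is worth. All but 5, 0 and 2 values of replicates 1, 2 and 3 were whole within 0.1 read, and no count test was run on them. Counting errors cover counting only.

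Named positions are the 8 highest peaks of each strain and, among called positions, the 8 largest rises and falls reaching 100 RPM. The rises and the falls were each taken at least 10 positions apart. Troughs, runs and windows were named as 3 of each kind. Clusters, the step at position 5393 and the printed stretches were chosen after their values were seen. The members and lists were chosen with earlier results of these data known.

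Alternatives were other pseudocounts, scalings, thresholds and window lengths, leaving out each replicate, and, chosen after seeing the data, the authors' WT mean. Python 3.11.15, numpy 2.4.6, pandas 2.3.3 and scipy 1.17.1 were used, and the code was tested on simulated data.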

Additional observations from a re-analysis of the deposited data

How the results depend on the processing

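The main comparisons take the WT median as a single fixed profile with no error, and leaving out replicates measures only the *hmo1Δ* side. The log2 ratio of the summed occupancy was 0.0753 without the highest 1% of positions of 25S. The middle segment minus the 5′ segment ranged from -0.000833 (without replicate 2) to 0.0195 with a replicate left out, so its direction rests on replicate 2. At 2-fold, 84 positions were above WT and 1 was below. The difference in G content between risen and fallen positions was then 5.24 percentage points, with only that 1 position on the fallen side. In windows of 25 positions, 23 of 46 had all replicates above WT. The top 1% and top 5% of positions held 6.18% and 19.8% of *hmo1Δ* occupancy. The share of WT peaks shared with *hmo1Δ* was 78.8% when peaks within 2 positions counted, and 66.7% to 75.8% with a replicate left out. The remaining 64 values of summary results moved by less than the spread between replicates or stayed within 1.5 times the reported count. Of 175 values at single named positions, 163 moved by less than that spread and 12 by more, 8 of them against the authors' WT mean (such as position 5010 at -0.50 and 5316 at -0.68) and 2 with a pseudocount of 10 RPM (5404 at 2.19 and 4661 at 2.30). Position 5046, whose replicates lie on both sides of the WT median, had a log2 ratio of -0.11 against the authors' WT mean. No paired analysis between the strains was possible because there is 1 group of samples, and only the segments of 25S were compared within replicates. The lowest position held 15 reads, where counting noise is largest.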

Other observations

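Of the 12 runs of 6 or more neighbouring positions in 25S that rose by at least 1.5-fold, 5 were in the middle segment, which held 175 of the 488 risen positions of 25S. These 5 are not separate sites. The runs 5248 to 5256, 5258 to 5268 and 5273 to 5280 all lie in 1 cluster, positions 5248 to 5280, where 29 of 33 positions rose. The run from 5258 to 5268 had the largest rise of the 12, 4.56-fold, and the run from 5393 to 5404 had the largest WT drop from the positions before it, 11.9-fold. These runs were listed after the step at position 5393 had been seen.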
